A study of Mus musculus with 5 samples.

Results

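The cytosolic ribosome is built from ribosomal RNA and about as many different proteins as there are genes described here, each made in roughly equal amounts for a large or a small subunit. The ribosomal protein genes were chosen by symbol: annotated mouse genes named Rpl or Rps with a family number, plus Rpsa, Rplp0, Rplp1, Rplp2 and Fau, without S6 kinases and without names that end as pseudogenes. That gave 90 of 57186 listed genes, 53 for the large subunit and 37 for the small subunit. RNA came from follicular regulatory T (Tfr) cells of mouse spleen, CD4 T cells that carry Foxp3 and restrain germinal centre responses. All mice had received imiquimod, a TLR7 agonist, and cells were taken on day 21. The WT group held 3 libraries, from mice with a Foxp3-GFP reporter allele and unaltered Cebpa. The Cebpa_KO group held 2 libraries, from Foxp3-Cre Cebpa-flox/flox mice, in which Cre expressed from Foxp3 removes Cebpa from regulatory T cells. Cebpa codes for C/EBP alpha, a transcription factor. Besides Cebpa, the Foxp3 allele was therefore not the same in both groups, and each library pooled several mice, so the p-values measure the spread between pools.

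Levels are TPM, a measure of transcript abundance corrected for gene length and depth, after scaling between libraries (scaled TPM). Differences are on the log2(scaled TPM + 1) scale, Cebpa_KO minus WT, and a gene was called higher or lower at an adjusted p below 0.05 over 16254 genes tested with limma. Cebpa was at 12.9, 17.7 and 12.8 in the WT libraries and at 0.317 and 0.550 in the Cebpa_KO libraries, which did not overlap. It differed by -3.42 (SE 0.199, limma adjusted p = 0.00371). The exact two-sided permutation test gave p = 0.1, the smallest it can give with 3 against 2 libraries. Foxp3, on which the cells were sorted, stood at 83.0, 107 and 105 in WT, against 6.74 and 5.58 in Cebpa_KO, and 6 of the 8 Tfr markers were called lower. Aligned depth was 6.76 to 7.08 gigabases per library. Summed Y-linked genes were at 151 to 162 in WT and at most 0.0311 in Cebpa_KO, and Xist was at most 0.0220 in WT and 10.7 or more in Cebpa_KO. Sex, Foxp3 allele and Cebpa genotype cannot be told apart in these groups.

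Ribosomal protein mRNAs are short, abundant and stable. In mammals most begin with a 5′ terminal oligopyrimidine (TOP) tract, and their translation is turned up by the kinase mTOR and held back by the RNA-binding protein Larp1. Activated T cells make many more ribosomes as they grow, and Myc is a known activator of ribosome production. Many of these genes also have processed copies across the genome, so short reads of a parent gene can match several places.

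Promoter windows of 60 bases are shown because the genes share promoter letters that the choice by symbol did not use. They run from 40 bases before to 20 bases after a RefSeq transcription start, on build GRCm38.p6, 5′ to 3′ on the gene's strand. Capitals mark CTTTCC on the gene strand, a pyrimidine run of the kind found around TOP starts, and CCGGAAG on either strand (CTTCCGG when reversed), the core that Ets-family factors bind. Rpl38, Rpl35a, Rpl26 and Rpl34 were among the large-subunit genes with the smallest p-values. Rps27l with Rps27, and Rpl22l1 with Rpl22, are variant and parent gene pairs. Most were picked because they hold a motif: of 30 named genes with such a window, 9 have a motif within 60 bases, and Rpl12, Rpl27 and Rpl5, also among the smallest p-values, have none there. Where RefSeq lists several starts, a window that holds a motif is shown.
Rpl38, chr11:114668540-114668599, plus strand: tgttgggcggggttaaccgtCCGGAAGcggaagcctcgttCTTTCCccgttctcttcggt
Rpl35a, chr16:33056442-33056501, plus strand: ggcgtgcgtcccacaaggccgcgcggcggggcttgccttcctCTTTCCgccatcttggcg
Rpl26, chr11:68901526-68901585, plus strand: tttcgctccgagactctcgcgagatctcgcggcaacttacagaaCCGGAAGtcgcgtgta
Rpl34, chr3:130730318-130730377, minus strand: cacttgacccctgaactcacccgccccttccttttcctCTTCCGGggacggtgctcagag
Rps27l, chr9:66946046-66946105, plus strand: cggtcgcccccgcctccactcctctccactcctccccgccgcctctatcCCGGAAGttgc
Rps27, chr3:90213629-90213688, minus strand: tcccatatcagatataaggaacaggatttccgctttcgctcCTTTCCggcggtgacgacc
Rpl22l1, chr3:28805468-28805527, plus strand: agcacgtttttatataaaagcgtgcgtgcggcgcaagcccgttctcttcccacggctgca
Rpl22, chr4:152325686-152325745, plus strand: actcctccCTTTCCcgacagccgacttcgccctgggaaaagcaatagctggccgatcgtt

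Over the full windows of 300 bases in the RefSeq table (250 before and 50 after a start), 65 of the 90 genes matched. CTTTCC on the gene strand was in 25 of the 65 (38.5%), against 16.0% of all 27025 genes in the table. CCGGAAG on either strand was in 26 (40%), against 9.93% of all genes. CTTTCC and CCGGAAG occurred together in 12 of the 65 (18.5%), against 1.77% of all genes. CACGTG, the E-box bound by Myc and related factors, was in 6 (9.23%), close to the 8.09% of all genes. AAGATGGC was in 7 (10.8%), against 3.19%. By subunit, CTTTCC was in 19 of 40 large-subunit and 6 of 25 small-subunit genes, and CCGGAAG in 15 of 40 and 11 of 25. Among the genes called higher in Cebpa_KO, CTTTCC was in 12 of 25 and CCGGAAG in 11 of 25. Among the other 40, which include Rpl10l and Rpl3l that did not pass the filter and were not tested, they were in 13 and in 15. A match of letters is a description and not a binding site.

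Of the 90 genes, 87 passed the filter on low values, 51 for the large and 36 for the small subunit. Of the 87, 34 were called higher in Cebpa_KO, none lower and 53 were not called. For a few of the 87, such as Rpl6l and Rps3a2, no coding sequence is annotated. Rpl6l is among the 34, and 76.4% of its 50-base stretches also occur in other genes. Over all genes tested, 9.93% were called higher and 9.82% lower, whereas the 34 make 39.1% of the ribosomal protein genes tested. The difference was positive in 81 of the 87, with a median of 0.39 and a middle range of 0.30 to 0.50, beside a median of 0.01 over all genes. In 73 of the 87, both Cebpa_KO libraries lay above all WT libraries, an ordering that 28.7% of all genes had. Rpl39l was the only gene of the 87 in which both lay below, an ordering that 28% of all genes had, and in 13 the groups overlapped. The called differences ran from 0.39 to 0.85. In these bulk libraries, more ribosomal protein RNA per cell and a greater share of cells rich in it cannot be told apart.

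**Figure D1:**
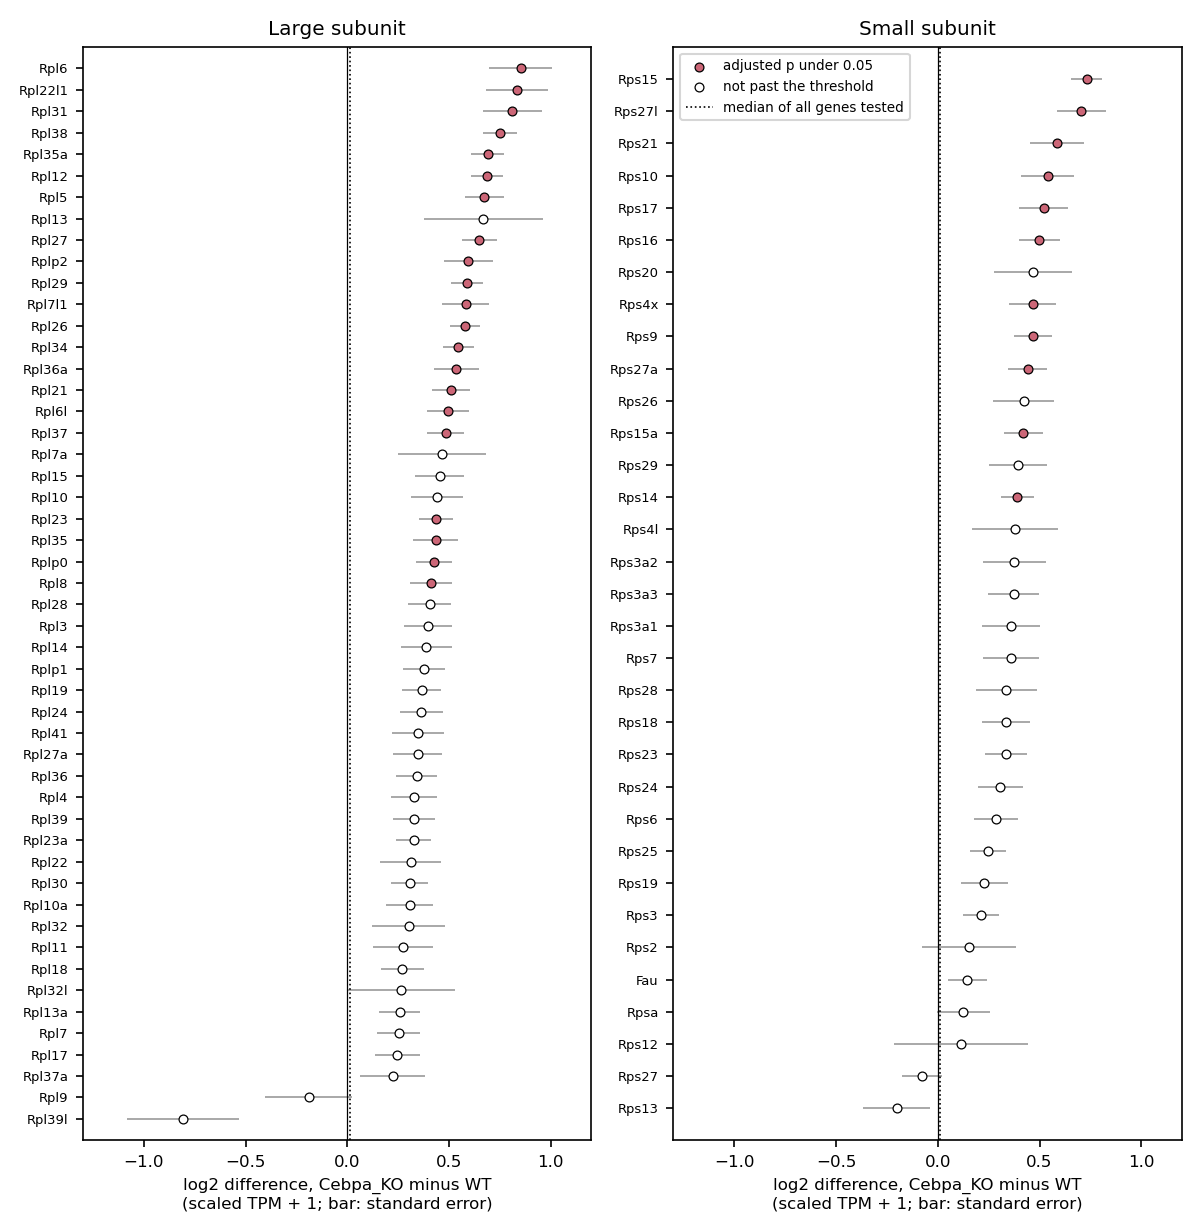
Log2 difference, Cebpa_KO minus WT (scaled TPM + 1), of the tested ribosomal protein genes shown, ordered within the large subunit (50 genes) and the small subunit (33 genes). Bars are standard errors, filled points are adjusted p below 0.05 and the dotted line is the median of all genes tested, 0.01. All but 4 points lie right of 0 and no filled point lies left of it.

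Which libraries the calls rest on was examined first, because WT replicate 3 and Cebpa_KO replicate 1 stood at the ends. WT replicate 3 was the lowest of the 5 libraries in 74 of the 87 genes, and in 3668 of all 16254. Cebpa_KO replicate 1 was above Cebpa_KO replicate 2 in 79 of the 87, and in 8440 of all 16254. It was the highest of all 5 libraries in 74 of the 87, and in 3818 of all 16254. Measured against WT replicates 1 and 2 alone the median difference was 0.30, and against WT replicate 3 alone it was 0.54. Without WT replicate 3, 35 genes were called higher, beside 13.7% of all genes, and 34 of those were the 34 of the full set. In the same fit 1 gene was called lower, beside 11.5% of all genes. Leaving out WT replicate 1 gave 17 (6.03% of all genes), and leaving out WT replicate 2 gave 9 (2.74% of all genes). Without Cebpa_KO replicate 1 limma called 0 at the adjusted threshold, beside 0.0569% of all genes, and without Cebpa_KO replicate 2 also 0, beside 0.0314%. At an unadjusted p below 0.05 limma placed 31 of the 87 higher without Cebpa_KO replicate 1, beside 1647 of all 15819 genes in that fit. Without Cebpa_KO replicate 2 these were 47 of the 87, beside 1880 of 15905. The sign was positive in 78 and 83 of the 87 in those 2 fits. The direction held with unscaled TPM, with quantile normalization and with scaling factors computed without these genes, which each left 81 of 87 positive. Calls higher numbered 30, 29 and 34 under those 3 scalings, beside 9.4%, 9.01% and 10% of all genes.

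Markers of other cells and handling moved with some of these libraries. The 4 erythroid markers summed to 46.4, 33.6 and 378 in WT, against 1152 and 126 in Cebpa_KO. The 5 neutrophil markers summed to 14.6, 8.54 and 70.4 in WT, against 249 and 58.9 in Cebpa_KO. Sums of the 5 B cell markers were 75.4, 65.7 and 112 in WT, against 222 and 48.6 in Cebpa_KO, with Pax5 at 0.0156 to 0.520. The 4 plasma cell markers summed to 1327, 771 and 9517 in WT, against 4567 and 1715 in Cebpa_KO, and the 5 myeloid markers to 86.5, 60.7 and 108 and to 121 and 48.4. Of these 23 markers, 19 passed the filter and were tested, and none of the 19 was called. Cebpa_KO replicate 1, the highest in ribosomal protein RNA, was also highest in erythroid, neutrophil, B cell and myeloid markers. WT replicate 3, the lowest in ribosomal protein RNA, was highest in plasma cell markers. Hspa1a, a heat shock gene looked at after its values were known, was at 0.911, 0.684 and 690 in WT, against 1147 and 1238 in Cebpa_KO. The part of these differences in the ribosomal protein result was not tested.

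Summed over each subunit, the libraries gave the same order. The 53 large-subunit genes summed to 19743, 19210 and 17365 scaled TPM in WT replicates 1, 2 and 3, and to 26427 and 23184 in Cebpa_KO replicates 1 and 2. The mean was 18772 ± 1248 (SD, n = 3) in WT and 24806 ± 2293 (SD, n = 2) in Cebpa_KO, a ratio of 1.32. Small-subunit genes summed to 16215.5, 15465 and 13502 in WT, against 19622 and 17696 in Cebpa_KO, a ratio of 1.24. The groups did not overlap in either sum. All members together held 3.69%, 3.72% and 3.11% of the annotated TPM in WT, against 4.71% and 4.21% in Cebpa_KO. The ratio of the large to the small sum was 1.22, 1.24 and 1.29 in WT, against 1.35 and 1.31 in Cebpa_KO, which also did not overlap, by a gap smaller than the range within WT. No test was made on these sums.

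**Figure D2:**
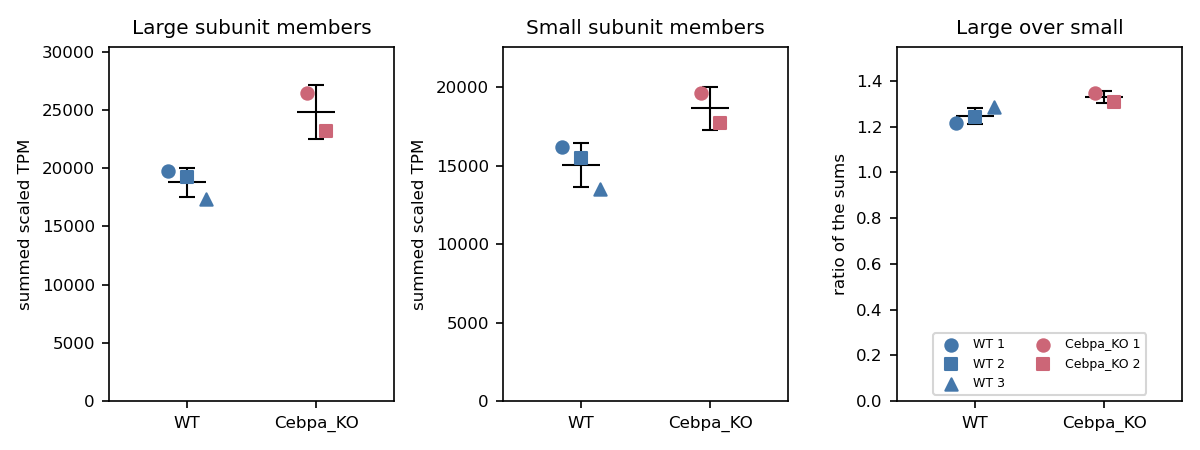
Summed scaled TPM of the large-subunit and small-subunit genes and the ratio of the sums (vertical axes from 0) in each of 3 WT and 2 Cebpa_KO libraries. Horizontal lines are means and bars are SD. Both Cebpa_KO libraries lie above all WT libraries in each panel, from 1.31 against at most 1.29 in the ratio.

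Levels across the genes kept their order between groups: Spearman's rho between the WT mean and the Cebpa_KO mean was 0.97 over the 87 genes, which share libraries. In WT the large-subunit means ran upwards from 2.60 (Rpl39l), and the small-subunit means from 3.70 (Rps4l). Among the most abundant large-subunit genes were Rpl4 at 1083 ± 104 (SD, n = 3), Rpl41 at 1033 ± 114, Rpl13 at 1028 ± 73.8 and Rplp0 at 1003 ± 42.4, and these 4 did not differ beyond their spread. Of the small subunit, Rps18 was at 1146 ± 121. Rps14 at 879 ± 39.4 and Rps27 at 807 ± 50.1 lay within the spread of Rps2, at 877 ± 121. Some genes of single ribosomal proteins were listed far below the rest, such as Rps15a at 23.6 ± 0.755 and Rps20 at 37.7 ± 7.26. A median of 88.3% of the 50-base stretches of a member's sequence also occurred in transcripts of another gene, and in 26 genes every stretch did. How reads of such stretches were shared out is not given in the sources used here. A level of these genes is therefore uncertain. Over the 87 genes Spearman's rho of the log2 difference was 0.06 with the shared percentage, -0.29 with the WT mean and -0.08 with the length of the sequence.

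**Figure D3:**
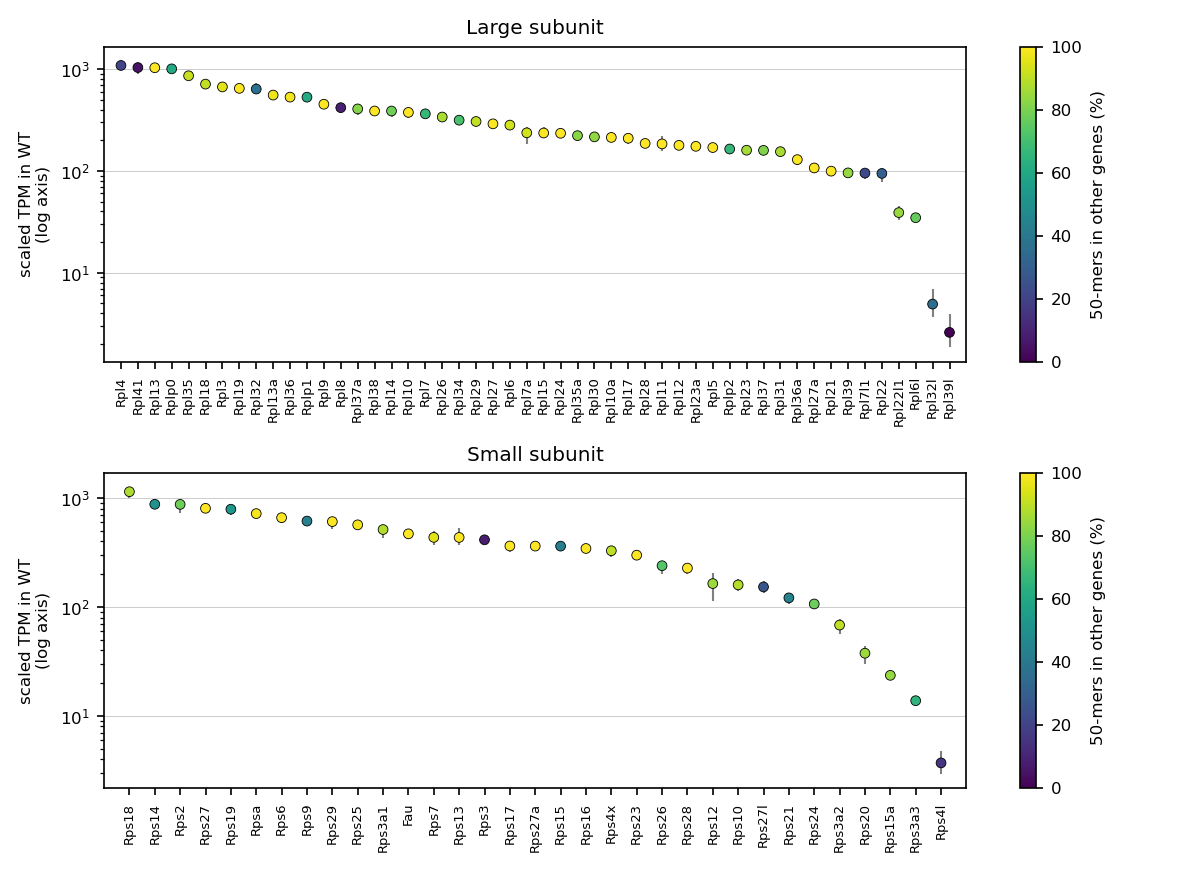
WT mean of scaled TPM (logarithmic axis) for 50 tested genes of the large and 33 of the small subunit, ordered by level. Bars span the lowest to the highest of 3 WT libraries and colour gives the percent of 50-base stretches found in other genes. Among the genes shown, levels fall from 1146 for Rps18 to 2.60 for Rpl39l, and most genes are coloured above 50%.

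Split at 50% shared stretches, a split chosen after the values were seen, 18 genes were below it and 16 of these were tested. Of the 16, 7 were called higher (among them Rpl7l1, Rpl8, Rps9, Rps15, Rps21 and Rps27l), 14 were positive and the median difference was 0.36. Of the 71 tested genes at or above 50%, 27 were called higher, 67 were positive and the median was 0.39. Over all genes 9.93% were called higher and the median was 0.01. The 321 annotated rows named as ribosomal protein pseudogenes summed to 3971, 3815 and 3354 in WT, against 4866 and 4504 in Cebpa_KO, a ratio of 1.26. Adding those rows to their parent genes left 33 of the 87 called higher, beside 9.92% of all genes. Abundance and length were set beside the result in the same way. Among other genes with a mean of at least 100, 18.5% were called higher with a median of 0.04, and 31 of 78 ribosomal protein genes above that level were called, with a median of 0.39. Other genes with a median transcript of at most 1000 bases had a median of 0.11, and 540 of 5314 were called higher. The median transcript was 713 bases for the ribosomal protein genes and 1553 bases for all tested genes with a length.

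**Figure D4:**
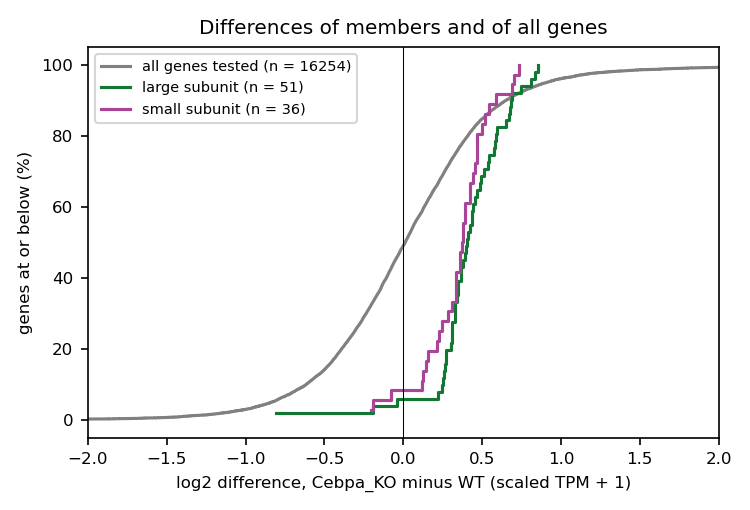
Share of genes (%) at or below each log2 difference, Cebpa_KO minus WT, for all 16254 genes tested, 51 large-subunit genes and 36 small-subunit genes. The axis stops at -2 and 2. Both ribosomal curves rise mostly between 0.2 and 0.8, right of the curve of all genes, which crosses 50% near 0.

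Large-subunit genes were called higher in 21 of 51, beside 9.93% of all genes, with a median of 0.40. In 45 of the 51 both Cebpa_KO libraries lay above WT, an ordering that 28.7% of all genes had. Rpl38 (ENSMUSG00000057322, mm39 chromosome 11, 114559350 to 114563157), whose loss in mice alters the axial skeleton, was at 388, 387 and 385 in WT, against 691 and 614 in Cebpa_KO. The WT libraries were nearly equal and both Cebpa_KO libraries were far above them. Rpl38 rose by 0.75 (SE 0.083, limma adjusted p = 0.00829). Every 50-base stretch of its coding sequence also occurs in other genes. Rpl12 (mm39 chromosome 2, 32851571 to 32855357), at the base of the stalk that recruits elongation factors, was at 189, 172 and 173 in WT, against 289 and 285 in Cebpa_KO. It rose by 0.69 (SE 0.079, adjusted p = 0.00906) with no overlap. Of the other stalk genes, Rplp0 stood at 1033, 1020 and 954 against 1398 and 1296, and rose by 0.42 (adjusted p = 0.0303). Rplp2 rose by 0.59 (adjusted p = 0.0281), whereas Rplp1 was 0.38 higher without a call (adjusted p = 0.0581). The stalk genes other than Rpl12 were picked after their values were seen. All 4 had both Cebpa_KO libraries above WT, as 28.7% of all genes did.

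Rpl5 and Rpl11 form a particle with 5S rRNA and can bind the p53 inhibitor Mdm2. Rpl5 was at 182, 157 and 169 in WT, against 283 and 259 in Cebpa_KO, and rose by 0.67 (SE 0.095, adjusted p = 0.0128). Rpl11, chosen as its partner after values were seen, was at 219, 175 and 158 in WT, against 221 and 220 in Cebpa_KO. Its groups did not overlap but were separated by less than 2 scaled TPM, and it was not called (0.27, adjusted p = 0.239). Whether Rpl5 and Rpl11 differed from each other was not tested.

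Among genes whose proteins lie on or near the exit of the peptide tunnel, Rpl26 was at 349, 333 and 330 in WT, against 515 and 494 in Cebpa_KO. It rose by 0.58 (SE 0.074, adjusted p = 0.0111), again without overlap. Rpl35, seen after the fact, rose by 0.43 (adjusted p = 0.0494), close to the threshold. Rpl35a was at 228, 227 and 210 against 372 and 345, and rose by 0.69 (SE 0.081, adjusted p = 0.00941). Mutations of its human counterpart are a known cause of Diamond-Blackfan anaemia, a failure of red cell production. Rpl27 was at 296, 294 and 278 against 481 and 429, a rise of 0.65 (adjusted p = 0.0117). For Rpl29 the values were 314, 311 and 291 against 475 and 444 (0.59, adjusted p = 0.0122), and for Rpl34 they were 329, 302 and 313 against 450 and 468 (0.54, adjusted p = 0.0128). In each of Rpl26, Rpl35a, Rpl27, Rpl29 and Rpl34 the WT values lay close together and both Cebpa_KO values were above them. The differences with the greatest size, seen after the fit, were those of Rpl6 and Rpl31. Rpl6 was at 300, 283 and 261 against 432 and 597 (0.85, SE 0.156, adjusted p = 0.0228), and Rpl31 at 168, 156 and 139 against 308 and 238 (0.81, SE 0.143, adjusted p = 0.0209). Their Cebpa_KO libraries were far from each other, with replicate 2 the higher in Rpl6 and replicate 1 the higher in Rpl31.

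Rpl13, Rpl4 and Rpl41, among the most abundant large-subunit genes, were not called. Rpl13 was at 1075, 1066 and 943 in WT, against 2309 and 1153 in Cebpa_KO. Replicate 1 of Cebpa_KO alone stood far above the other 4 libraries, and the difference of 0.67 had a standard error of 0.294 (adjusted p = 0.162). Rpl4 was at 1189, 1077 and 982 against 1409 and 1305 (0.33, adjusted p = 0.0960), and Rpl41, the smallest ribosomal protein, at 1095, 1102 and 901 against 1389 and 1235 (0.35, adjusted p = 0.112). Neither overlapped between groups. Rpl9 was 1 of the genes with a negative difference, at 463, 468 and 421 in WT, against 504 and 309 in Cebpa_KO. Its Cebpa_KO values enclosed those of WT, with a difference of -0.19 (adjusted p = 0.549) that was 0.17 without Cebpa_KO replicate 2.

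**Figure D5:**
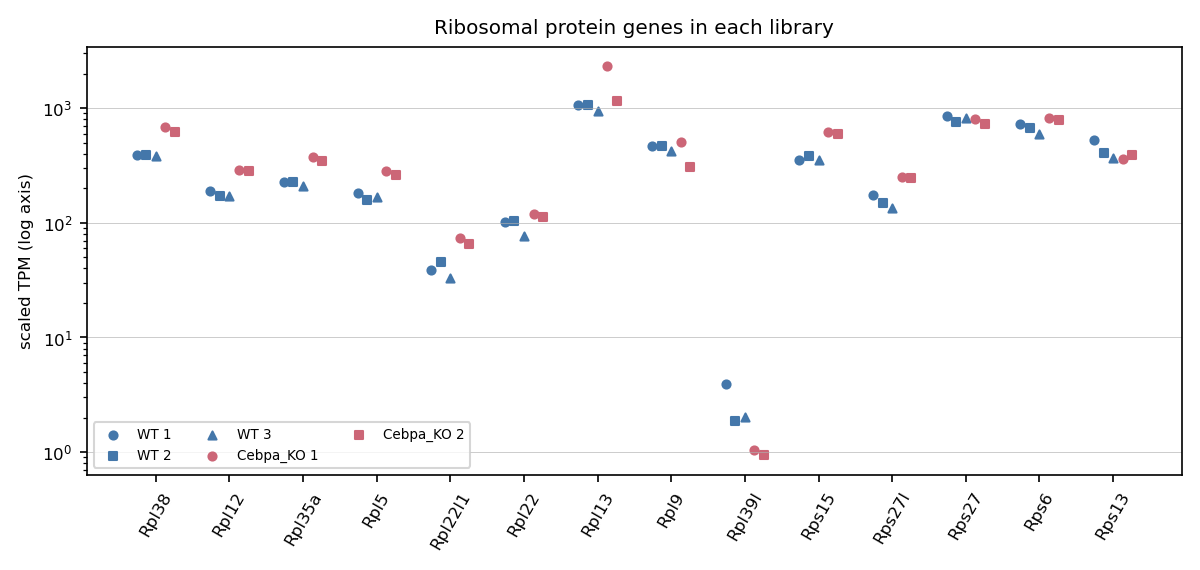
Scaled TPM (logarithmic axis) of 14 ribosomal protein genes in 3 WT libraries (blue) and 2 Cebpa_KO libraries (red), 1 symbol per library. Rpl38, Rps15 and Rps27l are separated between groups, whereas Rps27 and Rps13 overlap and Rpl39l is the only gene with both red symbols below all blue ones.

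Small-subunit genes were called higher in 13 of 36, beside 9.93% of all genes, with a median of 0.37. In 28 of the 36 both Cebpa_KO libraries lay above WT, an ordering that 28.7% of all genes had. Rps15 (ENSMUSG00000063457, mm39 chromosome 10, 80128287 to 80129948), a protein of the subunit head, was at 356, 380 and 352 in WT, against 615 and 589 in Cebpa_KO. The groups were well apart, and it rose by 0.73 (SE 0.078, adjusted p = 0.00763), with 42.9% of its stretches shared with other genes. Rps9 was at 617, 635 and 596 against 911 and 796 (0.47, adjusted p = 0.0273), Rps16 at 350, 372 and 313 against 505 and 469 (0.50, adjusted p = 0.0288). Both were without overlap. Of the abundant genes, Rps14, whose human counterpart lies in the region lost in the 5q- syndrome, was at 907, 896 and 834 against 1163 and 1142, and rose by 0.39 (adjusted p = 0.0315). Rps18 was at 1246, 1181 and 1012 against 1489 and 1394, no overlap but no call (0.34, adjusted p = 0.104). Rps2 overlapped, at 951, 942 and 737 against 1223 and 768, with a difference of 0.15 (adjusted p = 0.657) that was -0.18 without Cebpa_KO replicate 1.

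Some ribosomal proteins are made as fusions with ubiquitin or a ubiquitin-like protein. Rps27a, a ubiquitin fusion, was at 388, 366 and 334 in WT, against 507 and 477 in Cebpa_KO, and rose by 0.44 (SE 0.094, adjusted p = 0.0318). Fau, fused to a ubiquitin-like protein, was at 508, 469 and 434 against 536 and 503, overlapping and not called (0.15, adjusted p = 0.325). It was chosen by its fusion after its values were seen. Rps6, the substrate by which S6 kinase activity is usually read, was at 721, 669 and 595 against 824 and 785. The groups did not overlap, and the difference of 0.29 was not called (adjusted p = 0.117). These tables measure its RNA and not its phosphorylation.

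No small-subunit gene was called lower, beside 9.82% of all genes, and 3 had a negative difference. Of these, Rps13 was at 527, 409 and 371 against 357 and 393 (-0.20, adjusted p = 0.414), and Rps27 at 847, 751 and 823 against 808 and 721 (-0.08, adjusted p = 0.599). Both overlapped between the groups.

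Several ribosomal protein genes have a second gene whose symbol marks it as a variant. The balance of such pairs was read as the ratio of variant to parent in each library. Rpl22 is needed for development of alpha beta T cells, and Rpl22l1 is its close relative. Rpl22l1 (mm39 chromosome 3, 28859585 to 28861573) was at 38.8, 45.3 and 32.8 in WT, against 73.6 and 65.9 in Cebpa_KO. It rose by 0.83 (SE 0.152, adjusted p = 0.0227) with no overlap. Rpl22 was at 102, 105 and 77.1 against 120 and 113 (0.31, adjusted p = 0.198). Rpl22l1 was thus at 38.2%, 43.3% and 42.6% of Rpl22 in WT, against 61.2% and 58.6% in Cebpa_KO. Of the stretches of Rpl22l1, 84.4% were shared with another gene, against 30.8% of those of Rpl22, so the level of the variant is the less certain. Rps27l, a known p53 target, and Rps27 gave a similar picture. Rps27l (mm39 chromosome 9, 66853368 to 66856798) was at 175, 149 and 136 against 249.6 and 247.5, and rose by 0.70 (SE 0.121, adjusted p = 0.0201). It stood at 20.6%, 19.8% and 16.5% of Rps27 in WT, against 30.9% and 34.3% in Cebpa_KO. Only 26.8% of the stretches of Rps27l were shared with another gene, whereas all of those of Rps27 were.

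Rpl39l, a tunnel protein best known from testis, lay the other way against its parent. Its level was 3.92, 1.86 and 2.03 in WT, against 1.05 and 0.937 in Cebpa_KO, the only member with both Cebpa_KO libraries below WT. The difference of -0.81 had a standard error of 0.276 and was not called (adjusted p = 0.0957). Rpl39l was at 3.75%, 1.93% and 2.35% of Rpl39 in WT, against 0.862% and 0.794% in Cebpa_KO. Rpl7l1 rose by 0.58 (adjusted p = 0.0269), from 104, 83.4 and 98.1 to 138 and 147, and stood at 26.6%, 22.6% and 29.9% of Rpl7 in WT, against 30.6% and 35.7% in Cebpa_KO. Rps4l was at 4.79, 3.37 and 2.94 against 4.61 and 5.47, between 0.942% and 1.41% of Rps4x over the 5 libraries. No coding sequence is annotated for Rps4l in GENCODE M21. In exact two-sided permutation tests of the log2 ratio, Rpl22l1, Rps27l and Rpl39l each gave p = 0.1, the smallest that 3 against 2 libraries allow, and 0.167 adjusted over 5 pairs. Rpl7l1 gave p = 0.2 and Rps4l gave p = 1 in the same exact test. Rpl10l, a testis retrogene, was listed at 0 in every library, as was Rps12l1. Rpl3l, a striated muscle form of Rpl3, was at 0.0133 in WT replicate 1 and at or near 0 elsewhere. The parent genes Rpl10 (0.44, adjusted p = 0.0661), Rpl3 (0.40, adjusted p = 0.0721) and Rpl7 (0.25, adjusted p = 0.147) were positive without a call.

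The ribosomal protein genes lay on 20 chromosomes, with 15 on chromosome 7 and 4 on X. The 4 on X had both Cebpa_KO libraries above WT, as 28.7% of all genes did. Rps4x was at 339, 358 and 289 against 472 and 435 and rose by 0.47 (adjusted p = 0.0459). Rpl36a was at 135, 137 and 114 against 196 and 178, and rose by 0.54 (adjusted p = 0.0307). Rpl10 was at 403, 395 and 327 against 545 and 472, and Rpl39 at 104, 96.0 and 86.3 against 122 and 118 (0.33, adjusted p = 0.0780), both without a call. The sexes of the pools differ between groups, and the part of that in these values was not tested. Rpl36al, the copy of Rpl36a on chromosome 12, was at 197, 192 and 192 against 348 and 326, a rise of 0.80 (SE 0.072, adjusted p = 0.00648).

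Other mRNAs with a TOP tract, which code for translation factors and related proteins, leaned the same way. Of 22 such genes listed from general knowledge and all tested, 12 (54.5%) were called higher and none lower. Over all genes 9.93% were called higher and 9.82% lower. Of the 22, 20 were positive, beside 8281 of all 16254 genes. The median was 0.48, beside 0.01 over all genes. Npm1, a nucleolar chaperone of ribosome assembly, was at 277, 255 and 265 in WT, against 666 and 515 in Cebpa_KO. It rose by 1.14 (SE 0.128, adjusted p = 0.0086), more than any ribosomal protein gene. Rack1, a scaffold protein that sits on the small subunit, was at 378, 372 and 369 against 612 and 621, and rose by 0.72 (SE 0.069, adjusted p = 0.00682). Eif2s3x, an X-linked initiation factor subunit, was at 19.3, 20.3 and 18.2 against 44.0 and 40.9 and rose by 1.10 (adjusted p = 0.0064). As the sexes of the pools differ between groups, its rise cannot be told apart from a difference of sex, and the part of sex was not tested. The list was not uniform. Eef1a1 (0.06), Eef2 (0.01), Pabpc1 (-0.01) and Eif3f (-0.15), picked after the fit as the members nearest to or below 0 with major roles, were not called, and Eif3f had both Cebpa_KO libraries below WT.

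A list of 16 genes of ribosome supply and TOP translation held calls in both directions. Of the 16, 4 were called higher, 4 lower and 8 were not called, with a median of 0.05. Over all genes 9.93% were called higher and 9.82% lower, with a median of 0.01. The list includes Rpl36al, which is itself a copy of a ribosomal protein gene. Without it 3 of 15 were called higher and 4 lower, with a median of 0.04. Cnbp, which binds TOP mRNAs, rose by 0.54. Myc was at 113, 117 and 138 in WT, against 252 and 211 in Cebpa_KO and rose by 0.91 (SE 0.128, adjusted p = 0.0128). Of the kinases, Rps6kb1, S6 kinase 1, rose by 0.46 (adjusted p = 0.0314) and Rps6kb2, S6 kinase 2, fell by 0.45 (adjusted p = 0.0255). Rps6ka1, a kinase of the RSK family, was at 301, 315 and 329 against 163 and 168 and fell by 0.92 (SE 0.077, adjusted p = 0.0058). Eif4ebp2, a repressor of cap-dependent translation, fell by 0.63 (adjusted p = 0.0304), and Tsc1, part of the complex that restrains mTOR, fell by 0.58 (adjusted p = 0.0369). Larp1 was 0.50 higher without a call (adjusted p = 0.0520), and Mtor was at 6.57 to 8.54 in all 5 libraries with a difference of 0.04. Myc, Cnbp, Rps6kb1, Larp1 and Mtor were named after their values were seen.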

How the data were processed

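RNA-seq libraries of sorted Tfr cells, 3 WT and 2 Cebpa_KO, were read from a gene abundance table each. Per the labels' protocols, cDNA was made from low input with SMART-Seq chemistry and tagmented. STAR 2.7.11b, StringTie 2.1.3b and build mm39 are listed in the submitters' processing notes. The sources used here do not give the annotation, the strand setting or the treatment of reads with several matches, and overlapping antisense genes cannot be told apart. The TPM values deposited by the authors count here as a score. Loci assembled in a library already reach 1000000, and the rows of annotated genes, the only ones used, hold 96.7% to 97.6% of that a second time. The coverage and FPKM signal deposited by the authors gave aligned depth. There are no read counts, so no count model or counting interval was used.

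TPM was summed per gene ID and scaled by the median ratio to the geometric mean (factors 0.984 to 1.04). Genes that reached a TPM of 1 in 2 or more of the 5 libraries were fitted with limma 3.58.1 (R 4.3.3), intensity trend, on log2(scaled TPM + 1), with Benjamini-Hochberg adjustment, no covariates and a threshold of 0.05. A fold on this scale understates changes of low genes. The fit was also run on simulated data in which each gene varied independently. Shifts shared by many genes of a library were not simulated, so that run does not bear on them. Shared stretches are 50-base words of each gene's coding sequence, or of the transcript where none is annotated, found in GENCODE M21 transcripts of other genes. Promoters came from RefSeq on GRCm38.p6, and gene coordinates are those deposited on mm39. Exact permutation tests used scipy 1.17.1.

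Genes named were, for each subunit, the 4 most abundant, the 8 smallest p-values above and 4 below 0, the variant genes with their parents, members on X, Rps6 and Cebpa. Of the other lists, the 4 smallest p-values in each direction were named. Some genes that these rules take are not reported here, though counts, medians and sums include them. Members and lists were chosen with earlier results of these data known. Alternatives were other pseudocounts (0.1 and 5), filters (none, TPM 5), scalings, no trend, array weights, robust estimation, leaving out each library, WT replicate 3 as the only WT library, a replicate block and added pseudogene rows.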

Additional observations from a re-analysis of the deposited data

How the results depend on the processing

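The median difference of the large-subunit genes lay between 0.32 and 0.46 and that of the small-subunit genes between 0.26 and 0.48 when 1 library was left out. Against WT replicate 3 alone the large-subunit median was 0.53. Counts of calls depended on the setting. Leaving out 1 library in turn, large-subunit genes called higher ranged from 0 to 22 and small-subunit genes from 0 to 13 higher and 0 to 1 lower. Other TOP mRNAs ranged from 0 to 13 higher, regulators from 0 to 5 higher and 0 to 3 lower, and all genes from 5 to 2177 higher and 18 to 1825 lower. Cebpa ranged from -3.54 to -3.27, and without Cebpa_KO replicate 2 its adjusted p was 0.0512.

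Without a filter, where more genes share the adjustment, 8 large-subunit and 2 small-subunit genes, 5 TOP mRNAs and 930 of all genes were called higher, and 1 regulator and 629 of all genes lower. Array weights called 32 large-subunit genes and 2575 of all genes higher, and 2440 lower. Without the trend 6 small-subunit genes were called higher, beside 8.77% of all genes. Against WT replicate 3 alone, 8 small-subunit genes, 2 regulators and 1014 of all genes were higher, and 1 regulator and 647 of all genes lower. The sign of some single genes turned. Rpl9 ranged from -0.54 without Cebpa_KO replicate 1 to 0.17 without Cebpa_KO replicate 2, Rps2 from -0.18 to 0.49 and Rps27 from -0.16 to 0.00765 over the same fits. Against WT replicate 3 alone Rps13 was 0.00742. The cause was not tested. Over 42 named genes and 18 alternatives, 636 values kept direction and side of the threshold, 109 lost a call, 5 gained 1 and 4 changed sign.

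The labels do not say what shared replicate numbers stand for, and only 2 numbers are shared. For that reason the numbers were not taken to pair the libraries. Deviations of same-numbered libraries correlated at -0.18 and 0.27. With 2 Cebpa_KO libraries, whose deviations from their mean mirror each other, these values cannot show whether the libraries are paired. A replicate block called 11 large-subunit and 3 small-subunit genes higher, beside 8.36% of all genes. The block called 1 small-subunit gene, 2 regulators and 1050 of all genes lower. In that fit WT replicate 3 has no Cebpa_KO library of its number, so it adds nothing to the difference. Where 1 Cebpa_KO library was left out, limma assumes that the lone library varies as the WT libraries do. With 3 against 2 pools, no exact test can go below 0.1.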
